A study of Mus musculus with 12 samples.

Results

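The genes for heat shock proteins and J proteins were examined in the tibialis anterior, a hindlimb muscle, of mdx/mTR and wild-type mice. Members were entries of the count table whose symbol begins with Hspa, Hspb, Hspd, Hspe, Hsph, Hsp90, Dnaja, Dnajb or Dnajc in the form these gene families use. This gave 73 of 24421 entries. The rule used symbols and no measured value, but it was chosen with earlier results of these data known. By the usual location of their proteins, 35 were placed in the cytosol and nucleus, 10 in mitochondria, 14 in the endoplasmic reticulum (ER) and 14 elsewhere or nowhere in particular. A few symbols in the selection, such as Hspbp1, Hspbap1 and Hspb11, name partners of heat shock proteins or proteins that are no chaperones in the narrow sense.

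Chaperones bind unfolded proteins and release them in a form that can fold. HSP70 proteins do so in cycles of ATP hydrolysis that J proteins (the DnaJ or HSP40 family) start and HSP110 proteins, acting as nucleotide exchange factors, end. HSP90 completes the folding of kinases and receptors, chaperonins enclose proteins in a chamber, and small heat shock proteins hold unfolded proteins without using ATP. In striated muscle these systems fold myosin and maintain the Z-disc, and heat shock factor 1 (Hsf1) raises the inducible members after damage or heat.

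Messenger RNA was sequenced in 6 libraries from C57Bl/6 males (WT) and 6 from mdx/mTR males, at an age of 4 months. The mdx allele is a germline change that removes most dystrophin, the product of Dmd that anchors the fibre's cytoskeleton, and mTR names the RNA component of telomerase. The labels give no generation of telomerase loss, do not say whether the WT mice were littermates, and do not state that each library is a separate animal, so that p-values measure the spread between libraries. The labels name no treatment.

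Levels are CPM, counts relative to the library's size as scaled by trimmed means (TMM), given as mean ± SD over 6 libraries or as lowest, median and highest. A difference is the log2 fold change from WT to mdx/mTR ± its standard error, and a gene was called higher or lower where the adjusted p of edgeR's quasi-likelihood test was below 0.05 over 13937 genes. Library totals ran from 35136327 to 60330410 counts. Dmd fell from 237 ± 6.90 CPM to 46.8 ± 7.20 CPM, and Terc, the telomerase RNA gene, had 2 counts over all 12 libraries, so the loss of mTR could not be examined. Myofibre markers summed to 99997 to 113704 CPM in WT against 84973 to 117141 CPM in mdx/mTR, with 1 of 8 higher and 1 lower. Macrophage markers summed to 91.5 to 156 CPM and 252 to 675 CPM with 7 of 8 higher, and fibro-adipogenic progenitor markers to 903 to 1632 CPM and 2267 to 4484 CPM with 6 of 7 higher. Satellite cell and myoblast markers had 5 of 7 higher and 1 lower, at 52.0 to 68.0 CPM and 69.0 to 141 CPM. Endothelial markers summed to 527 to 679 CPM and 407 to 517 CPM with 4 of 6 lower, and Schwann cell markers to 41.8 to 53.3 CPM and 22.3 to 34.6 CPM with 4 of 5 lower. The 4 globin genes had 0 counts in every library. In whole muscle, fewer cells of a type and less RNA per cell cannot be told apart, and the part of these cell types in the results below was not tested. Among the libraries, WT replicate 2 and mdx/mTR replicate 5 most often held the lowest value of their group among the members called lower. They were also left out together, a choice made after the data were seen. Mdx/mTR replicates 1 and 2 stood apart for other members, as given below.

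With TMM scaling, the summed chaperone mRNA was lower in mdx/mTR muscle, and more members were called lower than higher. All 73 members together took 6580 ± 232 CPM in WT against 5630 ± 315 CPM in mdx/mTR, and the highest mdx/mTR library (6222 CPM) lay just below the lowest WT library (6242 CPM). That mdx/mTR library, replicate 2, also held the highest value of Hspb6, 1457 CPM. The largest parts of the sum were Hsp90ab1, Hspb6 and Hspa9, at 1109, 943 and 676 CPM in WT and 860, 851 and 507 CPM in mdx/mTR. Of the 64 members tested, 6 were higher and 25 were lower in mdx/mTR. Among all genes tested, 48.3% were called, 25.0% higher and 23.4% lower. The called share of the members, 48.4%, was that of all genes, while 39.1% of the members were lower and 9.38% higher. The median log2 fold change was -0.13 over the members and 0.01 over all genes. Lower members ranged from -0.77 to -0.16 on the log2 scale and most were abundant, with a median WT level of 62.5 CPM. Higher members had a median WT level of 6.35 CPM and none was above 27.0 CPM.

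Scaling moved the split between directions. With library totals alone, without TMM, the median of all genes moved up by 0.16 and that of the members turned from -0.13 to 0.03. The summed level of the members was then 6234 ± 167 CPM in WT against 5949 ± 484 CPM in mdx/mTR, and the groups overlapped, with the lowest WT library at 6009.7 CPM and the highest mdx/mTR library at 6779 CPM. The sum was 14.4% lower in mdx/mTR with TMM and 4.57% lower with library totals. Under the latter 12 members were higher and 17 lower, where 40.2% of all genes were higher and 11.2% lower, and Hspb2, Dnajb6, Dnajb11, Dnajc9, Dnajc18 and Dnajc30 were the 6 added to those called higher. The TMM factors were 0.929 to 0.971 for WT libraries and 0.988 to 1.16 for mdx/mTR libraries. At an adjusted p below 0.01, 2 members were higher and 20 lower, beside 17.0% and 16.1% of all genes, and with the replicate number as a block 7 were higher and 24 lower, beside 23.7% and 22.3%. Leaving out WT replicate 6 reduced the higher members to 3 (22.9% of all genes higher). Leaving out WT replicate 2 and mdx/mTR replicate 5 together gave 3 higher and 27 lower, where 23.4% of all genes were higher and 22.9% lower. No called member changed direction under any alternative run, and 20 of the 31, 17 lower and 3 higher, were past the 0.05 threshold in each.

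The groups did not overlap for 18 tested members, 2 with every mdx/mTR library above every WT library and 16 below. Over all genes 25.2% did not overlap, 12.6% above and 12.6% below. The 2 above were Hspa2 and Dnajb1. By place in the cell, 6 of 31 tested cytosolic members were higher and 11 lower, beside 25.0% and 23.4% of all genes. No member was higher in the other compartments, where 5 of 10 mitochondrial, 5 of 14 ER and 4 of 9 other members were lower. Under library totals alone, 8 cytosolic members were higher and 8 lower, 1 and 5 in mitochondria, 2 and 2 in the ER, and 1 and 2 elsewhere. Of all genes, 40.2% were then higher and 11.2% lower.

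**Figure D1:**
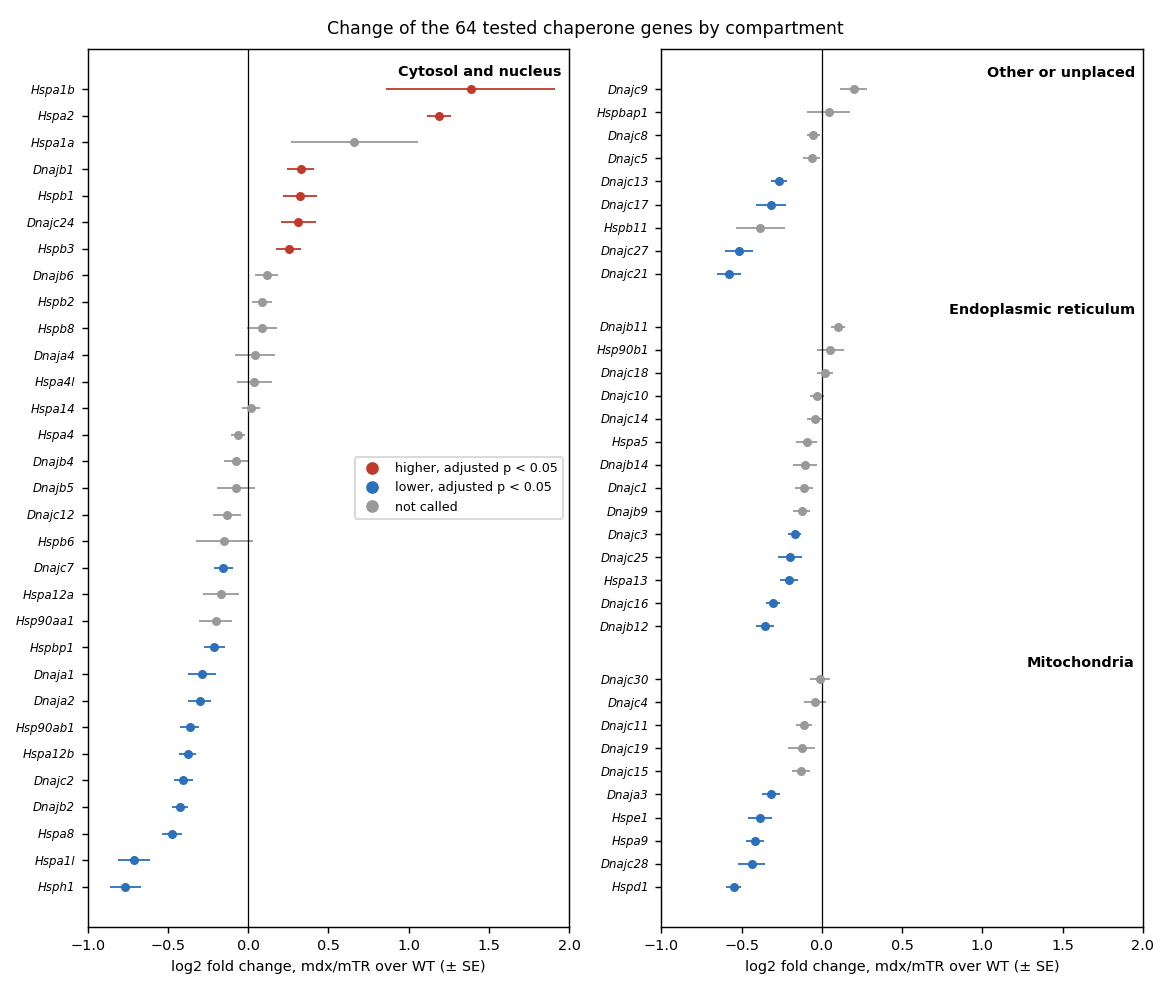
Log2 fold change from WT to mdx/mTR (x axis, TMM scaling, point with its standard error) for the 64 tested members, in rows by gene and compartment. Red marks the 6 members called higher, all cytosolic, blue the 25 called lower and grey the 33 not called. Hspa1b, at 1.39, has the widest error, and Hspa2 lies nearby at 1.19 with an error of 0.07.

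Levels between genes were compared per kilobase of the whole longest coding transcript, shared stretches included. In WT, the small heat shock protein Hspb6 led the members at 692 ± 59.3 CPM per kilobase, ahead of the constitutive cytosolic HSP90 gene Hsp90ab1 at 440 ± 24.3 CPM per kilobase. Mitochondrial Hspa9 and the small heat shock protein Hspb8 followed at 222 ± 8.57 and 220 ± 27.6 CPM per kilobase and did not differ beyond their spread. The J protein Dnaja2 stood at 100 ± 6.93 CPM per kilobase. The constitutive HSP70 gene Hspa8 had 95.4 ± 6.99 CPM per kilobase of its whole transcript but 379 CPM per kilobase of the part not shared with other genes, so its place depends on how shared reads were counted. The inducible HSP70 genes Hspa1a and Hspa1b were low by either length, with 0.670 and 0.354 CPM per kilobase, and 1.99 and 0.939 CPM per unshared kilobase. By the unshared length Dnajb14, at 0.738 CPM per kilobase, was below both.

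Promoters were searched for the heat shock element, the run of GAA units in alternating directions that HSF1 binds. RefSeq promoters of GRCm38.p6, from 250 bases before to 50 after a start, were listed for 59 of the 73 members. The letters searched were 3 units, GAA-NN-TTC-NN-GAA and its other phase TTC-NN-GAA-NN-TTC, where N is any base. Each phase is the other read on the opposite strand, so both strands were covered. They occurred in 0.603% of all 32851 promoters and in 4 of the 59 members, Hspd1, Hspe1, Hsph1 and Dnajb6. The 4 sites are printed 5′ to 3′ on the strand of the gene, with the element in capitals. Hspd1 and Hspe1 are neighbours transcribed away from each other, and theirs is the same site of 4 units read from either side, at chr1:55088053-55088082. It begins 144 bases before the start of Hspd1 and 89 bases before that of Hspe1. The Hsph1 site, at chr5:149636279-149636308 on the minus strand, lies 15 bases after the start used here, and the Dnajb6 site, at chr5:29735844-29735873 on the plus strand, begins 46 bases before the start.
Hspd1: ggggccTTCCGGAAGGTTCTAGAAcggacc
Hspe1: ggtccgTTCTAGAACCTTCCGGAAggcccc
Hsph1: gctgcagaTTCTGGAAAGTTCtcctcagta
Dnajb6: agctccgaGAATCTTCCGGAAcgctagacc
Of these 4 members, Hspd1, Hspe1 and Hsph1 were lower in mdx/mTR and Dnajb6 was not called. Of the 48 tested members listed without this match, 6 were higher and 17 lower, beside 25.0% and 23.4% of all genes.

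A looser search for 2 units, GAANNTTC or TTCNNGAA, matched 15.1% of all promoters and 16 of the 59 members. Those 16 included Hspa1a, Hspa1b, Hspb1 and Hspb3 beside the 4 above, which overlap with it by construction. Of the 15 that were tested, 3 were higher and 5 lower. Of the 37 tested members listed without such a match, 3 were higher and 15 lower, beside 25.0% and 23.4% of all genes. The 250 bases before the start of Hspa1b, at chr17:34959239-34959488 on the minus strand, are shown because this inducible gene had the largest fold change of the 64 tested members, a rank that rests on mdx/mTR replicate 1 (1.39 with it and 0.51 without). The 2 units, in capitals, begin 104 bases before the start.
Hspa1b: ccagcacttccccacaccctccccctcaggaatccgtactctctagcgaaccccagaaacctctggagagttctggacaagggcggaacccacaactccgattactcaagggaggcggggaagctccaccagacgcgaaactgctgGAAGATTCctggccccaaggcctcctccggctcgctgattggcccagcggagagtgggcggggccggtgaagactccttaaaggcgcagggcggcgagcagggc
A match is a description of the letters and not a shown binding site.

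Among the cytosolic HSP70 genes, the constitutive Hspa8 fell and the low-abundance Hspa2 rose. Hspa8 had 201, 230 and 247 CPM (lowest, median and highest) in WT and 152, 159 and 183 CPM in mdx/mTR, so that all 6 mdx/mTR libraries were below all WT libraries. Its log2 fold change was -0.47 ± 0.06 (adjusted p 5.4e-05). By sequence, 74.8% of the 50-base stretches of its transcript also occur in another gene, above all the gene model Gm15459, and how such reads were counted is not given in the sources used here.

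Hspa2, an HSP70 gene best known from the testis, had 5.39, 6.31 and 7.52 CPM in WT and 13.5, 14.7 and 15.6 CPM in mdx/mTR. The lowest mdx/mTR library thus lay well above the highest WT library, and the log2 fold change was 1.19 ± 0.07 (adjusted p 9.7e-08). None of its 50-base stretches occurs in another gene. It stayed between 1.14 and 1.34 in every alternative.

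The inducible pair Hspa1a and Hspa1b, near-identical genes on chromosome 17, was low in both groups and rested on one library. Hspa1b had 0.627, 0.857 and 1.67 CPM in WT and 0.711, 1.59 and 8.44 CPM in mdx/mTR, and Hspa1a had 1.12, 1.86 and 3.28 CPM and 1.51, 2.34 and 8.17 CPM. Both peaks were in mdx/mTR replicate 1, the other 5 libraries of that group lay at 0.711 to 1.92 CPM for Hspa1b and 1.51 to 2.85 CPM for Hspa1a, and the groups overlapped for both genes. Hspa1b was called at 1.39 ± 0.53 (adjusted p 0.042) and Hspa1a was not, at 0.66 ± 0.40 (adjusted p 0.18). Without mdx/mTR replicate 1 the log2 fold changes were 0.51 (adjusted p 0.15) for Hspa1b and 0.10 (adjusted p 0.77) for Hspa1a. The Hspa1b call was also lost when any one of WT replicates 2 to 6 was left out, with limma-voom, and when the pair was summed (0.94, adjusted p 0.091). Of the 50-base stretches, 66.3% of Hspa1a and 62.3% of Hspa1b occur in another gene, chiefly in each other, so the division of reads between them is uncertain.

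The remaining HSP70 genes of the cytosol were lower or not called. Hspa1l, a further gene of the chromosome 17 cluster, fell from 24.1 ± 2.19 to 14.7 ± 2.43 CPM without overlap, at -0.71 ± 0.10 (adjusted p 7.3e-05). However, 71.9% of its exonic bases overlap the gene model Gm10501 on the opposite strand, and reads of the 2 cannot be told apart without strand. Hspa12b, a distant HSP70 relative known from endothelial cells, fell from 32.6 ± 1.83 to 25.1 ± 1.62 CPM, at -0.38 ± 0.05 (adjusted p 9.5e-05). Of the endothelial markers, 4 of 6 were lower beside it, as given above, and their part in the fall of Hspa12b was not tested. Hspa12a (-0.17, adjusted p 0.22) and Hspa14 (0.02, adjusted p 0.82) were not called.

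The HSP110 gene Hsph1, an exchange factor for HSP70, had the most negative fold change of all members. It had 88.1, 126 and 138 CPM in WT and 63.7, 71.0 and 78.7 CPM in mdx/mTR. Each mdx/mTR library lay below each WT library, and the lowest WT value was that of replicate 2. The log2 fold change was -0.77 ± 0.10 (adjusted p 3.1e-05), and it was -0.84 without WT replicate 2. The related Hspa4 and Hspa4l were not called, at -0.06 ± 0.04 (adjusted p 0.24) and 0.04 ± 0.11 (adjusted p 0.79). Hspa4 ranged from 149 to 163 CPM in WT and from 141 to 159 CPM in mdx/mTR. Hspbp1, another exchange factor for HSP70, was lower at -0.21 ± 0.07 (adjusted p 0.018) with overlapping groups, and not with library totals alone (-0.05, adjusted p 0.63).

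The constitutive HSP90 gene Hsp90ab1 also fell. It had 985, 1131 and 1144 CPM in WT and 776, 872 and 905 CPM in mdx/mTR, with WT replicate 2 and mdx/mTR replicate 2 each well below the rest of their group. The groups did not overlap, and the log2 fold change was -0.37 ± 0.06 (adjusted p 0.00017). The inducible Hsp90aa1 was listed at only 7.65 to 11.9 CPM in WT against 7.56 to 9.57 CPM in mdx/mTR and was not called (-0.20 ± 0.10, adjusted p 0.12). Without WT replicate 2 it passed the threshold at -0.26 (adjusted p 0.036). Since 58.5% of its 50-base stretches also occur elsewhere, above all in the gene model Gm12346, its level is uncertain.

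**Figure D2:**
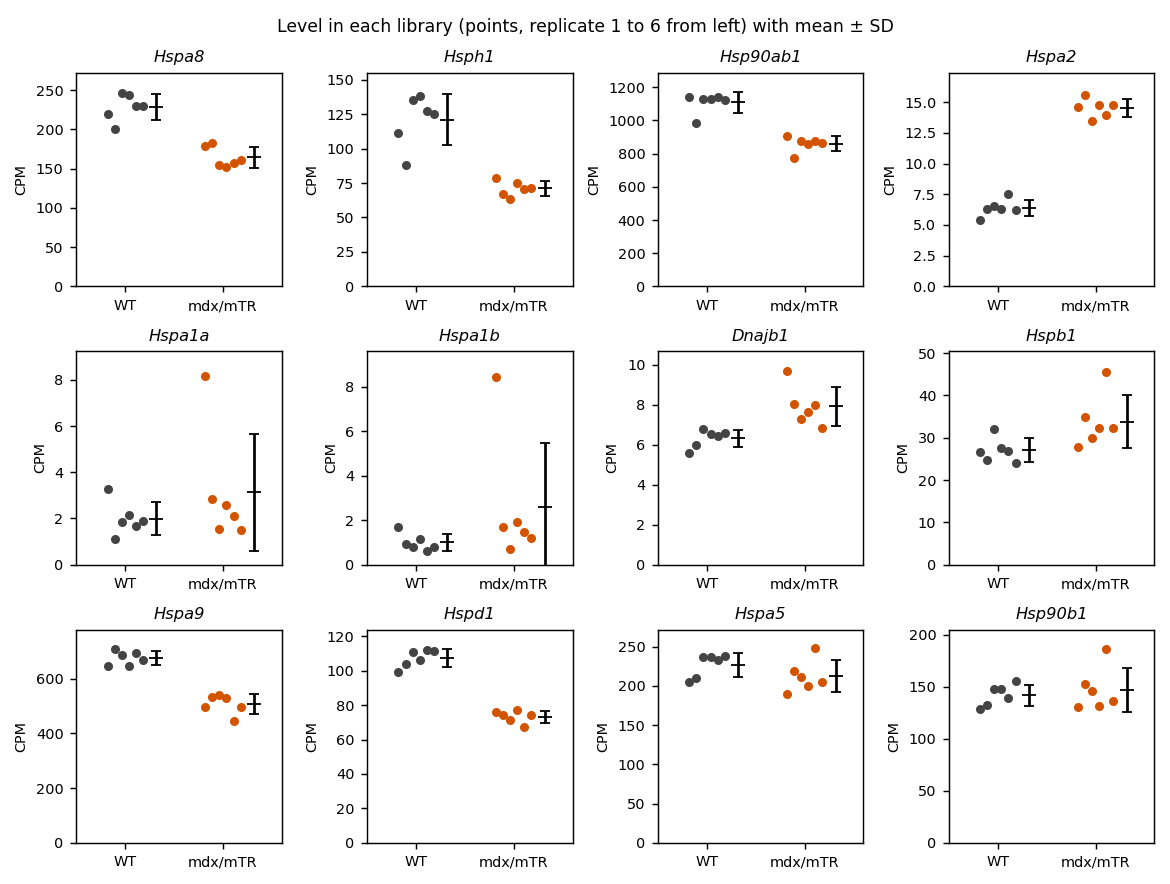
CPM (y axis, linear from 0) of 12 members in each library, with points for replicates 1 to 6 from left to right and the mean ± SD beside them. The groups are apart for Hspa8, Hsph1, Hsp90ab1, Hspa2, Dnajb1, Hspa9 and Hspd1, and mdx/mTR replicate 1 alone holds the peaks of Hspa1a (8.17 CPM) and Hspa1b (8.44 CPM). The SD bar of Hspa1b in mdx/mTR reaches below 0 and is drawn down to the axis.

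Of the 5 tested small heat shock protein genes, 2 rose and none fell, beside 25.0% and 23.4% of all genes. Hspb1, which stabilises actin filaments, had 24.0, 26.8 and 32.0 CPM in WT and 27.9, 32.3 and 45.6 CPM in mdx/mTR, where replicate 5 held the peak. The groups overlapped, with 4 of 6 mdx/mTR libraries above all WT libraries, and the log2 fold change was 0.32 ± 0.11 (adjusted p 0.022). The call was lost without WT replicate 6 (0.29, adjusted p 0.051) and without WT replicate 2 and mdx/mTR replicate 5 together (0.19, adjusted p 0.063). Of its 50-base stretches, 51.6% also occur elsewhere, above all in the pseudogene Hsp25-ps1.

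Hspb3, a muscle-enriched partner of Hspb2, had 14.7, 15.7 and 18.7 CPM in WT and 16.8, 19.4 and 21.4 CPM in mdx/mTR. The groups overlapped and the log2 fold change was 0.25 ± 0.08 (adjusted p 0.016). Hspb2 itself, which lies back to back with the alpha-crystallin gene Cryab and overlaps it over 30.2% of its exonic bases, was not called (0.09 ± 0.06, adjusted p 0.27).

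The abundant members Hspb6 and Hspb8 were not called. Hspb6 had 839, 964 and 1014 CPM in WT and 624, 728 and 1457 CPM in mdx/mTR, a range that replicate 2 alone widened upward. Its log2 fold change was -0.15 ± 0.18 (adjusted p 0.52), and -0.37 without mdx/mTR replicate 2, which passed the threshold (adjusted p 0.013). Hspb8, which works with the co-chaperone Bag3 in clearing damaged proteins at the Z-disc, had 311, 411 and 449 CPM in WT and 348, 427 and 473 CPM in mdx/mTR. At 0.09 ± 0.09 (adjusted p 0.48) it was not called, and neither was Bag3 (-0.15 ± 0.07, adjusted p 0.079), which passed without mdx/mTR replicate 2 (-0.20, adjusted p 0.013).

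The J proteins of the cytosol moved in both directions, with 2 of 12 tested members higher and 5 lower. Of all genes, 25.0% were higher and 23.4% lower. Dnajb1, the main stress-induced J protein, had 5.58, 6.49 and 6.77 CPM in WT and 6.86, 7.81 and 9.67 CPM in mdx/mTR, all 6 above WT by a small margin. Its log2 fold change was 0.33 ± 0.09 (adjusted p 0.0069), and 0.26 (adjusted p 0.012) without mdx/mTR replicate 1, which held the highest value. Dnajc24, a factor of diphthamide synthesis on elongation factor 2, was called at 2.39 ± 0.26 against 2.97 ± 0.343 CPM (0.31 ± 0.11, adjusted p 0.031). That call was lost in 7 of 21 alternatives.

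Dnajb2, which sorts HSP70 clients toward the proteasome, showed the most negative fold change of this group. It had 78.7, 90.9 and 97.7 CPM in WT and 64.2, 65.7 and 70.1 CPM in mdx/mTR, without overlap, at -0.43 ± 0.05 (adjusted p 2.8e-05). Dnajc2, a ribosome-associated J protein, fell from 29.4 ± 1.51 to 22.3 ± 1.86 CPM, also without overlap, at -0.40 ± 0.06 (adjusted p 0.00011). The general HSP70 partners Dnaja2 and Dnaja1 fell with overlapping groups. Dnaja2 had 252, 299 and 308 CPM in WT and 209, 237 and 275 CPM in mdx/mTR, at -0.30 ± 0.07 (adjusted p 0.0036). Dnaja1 had 12.4, 15.7 and 17.4 CPM in WT and 11.1, 12.6 and 14.4 CPM in mdx/mTR, at -0.29 ± 0.09 (adjusted p 0.016), and it was not past the threshold with library totals alone. Dnajc7, a link between HSP70 and HSP90, was called at -0.16 ± 0.06 (adjusted p 0.040), and that call was lost in 12 of 21 alternatives.

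Dnajb6 and Dnajb4, whose human counterparts carry mutations in inherited myopathies, were not called. Dnajb6, a suppressor of aggregation, stood at 9.81 ± 0.745 CPM in WT against 10.6 ± 0.902 CPM in mdx/mTR (0.11 ± 0.07, adjusted p 0.21), with 42.8% of its stretches shared. Dnajb4 stood at 60.6 ± 2.39 and 57.5 ± 7.37 CPM (-0.07 ± 0.07, adjusted p 0.44). Dnajb5 and Dnaja4 were also not called, with fold changes of -0.08 ± 0.12 (adjusted p 0.61) and 0.04 ± 0.12 (adjusted p 0.80). Dnaja4 spread from 108 to 124 CPM in WT and from 87.4 to 166 CPM in mdx/mTR, and 44.1% of its exonic bases overlap Wdr61. Dnajc12 was at -0.13 ± 0.09 (adjusted p 0.24).

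**Figure D3:**
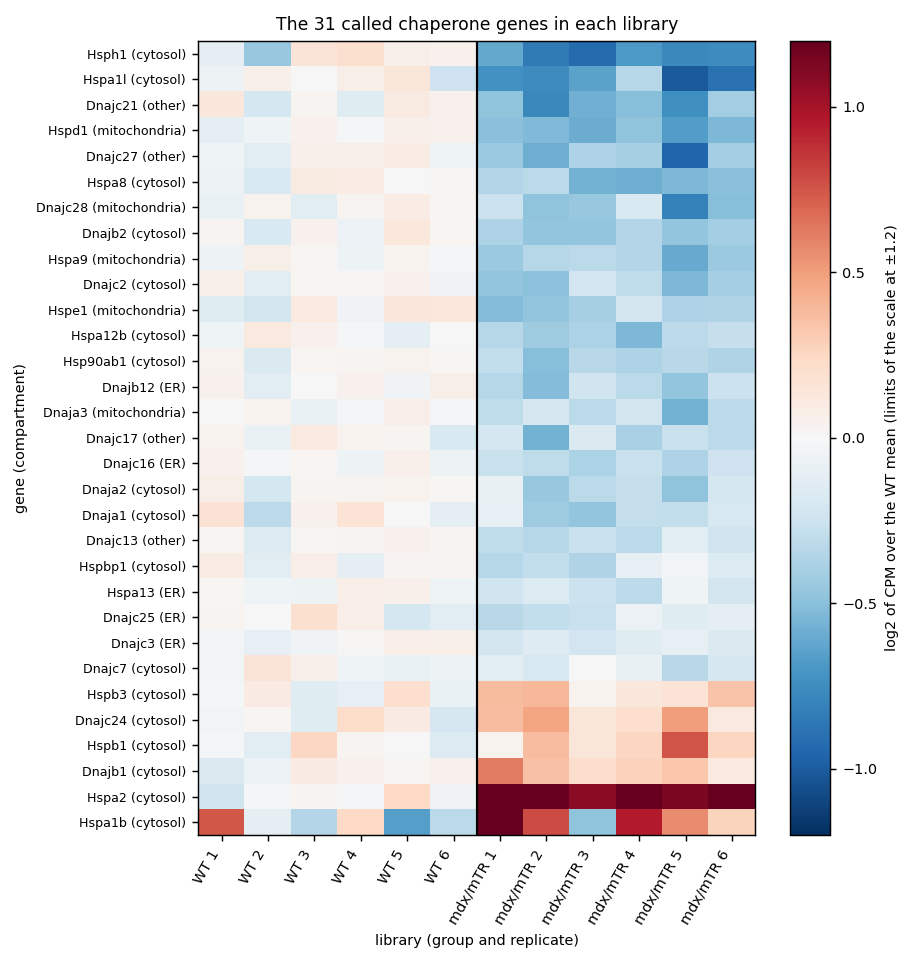
Log2 of each library's CPM over the WT mean (colour, limits at ±1.2) for the 31 called members, in rows ordered by fold change, with 12 libraries in columns and a line between the groups. The upper 25 rows are blue in most or all mdx/mTR libraries, Hspa2 is dark red in all 6, and the bottom row, Hspa1b, varies between libraries of either group.

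Single libraries held many of the extreme values. Of the 25 lower members, 14 had their lowest WT value in WT replicate 2 and 10 had their lowest mdx/mTR value in mdx/mTR replicate 5. With these libraries both left out, 27 members were lower, beside 22.9% of all genes.

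Beside 23.4% of all genes lower and 25.0% higher, 5 of 10 mitochondrial members were lower and none higher. Their summed level was 1160 ± 37.2 CPM in WT against 898 ± 57.8 CPM in mdx/mTR, and the highest mdx/mTR library (942 CPM) was below the lowest WT library (1116 CPM). Hspa9 made up most of that sum, and without it the sum of the other 9 was 484 ± 13.5 CPM in WT against 391 ± 25.1 CPM in mdx/mTR. This sum of 9 overlapped between the groups with library totals alone (459 ± 16.7 and 412 ± 18.6 CPM). All 10 fold changes were negative with TMM, 5 of them past the threshold. With library totals alone the 5 that were not called, Dnajc4, Dnajc11, Dnajc15, Dnajc19 and Dnajc30, had positive fold changes. The median of the 10 was -0.22, and -0.07 with library totals alone.

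The chaperonin genes Hspd1 and Hspe1, which encode the HSP60 chamber and its HSP10 lid, fell together. Hspd1 had 99.5, 109 and 112 CPM in WT and 67.3, 74.2 and 76.9 CPM in mdx/mTR, without overlap, and its log2 fold change was -0.55 ± 0.05 (adjusted p 1.3e-06). Hspe1 had 16.9, 20.2 and 21.6 CPM in WT and 13.7, 15.1 and 17.0 CPM in mdx/mTR. Its groups touched, since one mdx/mTR library passed the lowest WT library, and the log2 fold change was -0.39 ± 0.07 (adjusted p 0.00086). These are the genes on either side of the shared heat shock element shown above. For each, 44.8% of 50-base stretches also occur in other genes, above all Hspd1-ps3 for Hspd1 and AC117239.2 for Hspe1.

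Hspa9, the mitochondrial HSP70 that pulls proteins through the inner membrane, had 646, 677 and 709 CPM in WT and 445, 514 and 542 CPM in mdx/mTR. Every mdx/mTR library was below every WT library, and the log2 fold change was -0.41 ± 0.06 (adjusted p 5.9e-05). Its J protein partner Dnaja3 had 156, 163 and 174 CPM in WT and 111, 133 and 144 CPM in mdx/mTR, again without overlap, at -0.32 ± 0.06 (adjusted p 0.00059). Dnajc28 fell from 48.4 ± 2.71 to 35.7 ± 5.27 CPM, at -0.44 ± 0.09 (adjusted p 0.00098), and mdx/mTR replicate 5 was its lowest library at 27.6 CPM. The import motor genes Dnajc19 (-0.13 ± 0.08, adjusted p 0.23) and Dnajc15 (-0.13 ± 0.06, adjusted p 0.076) were not called. Dnajc11, an outer membrane protein linked to cristae, was not called at -0.11 ± 0.05 (adjusted p 0.076), and Dnajc4 and Dnajc30 lay at -0.04 and -0.01.

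In the ER, the main luminal chaperones were not called. Beside 23.4% of all genes, 5 of 14 members fell, with log2 fold changes from -0.36 to -0.17. The summed level was 791 ± 30.8 CPM in WT against 749 ± 42.8 CPM in mdx/mTR, and the groups overlapped. Library totals alone gave 749.9 ± 33.8 and 793 ± 91.9 CPM, in the opposite direction. Hspa5, the ER HSP70 also called BiP, had 205, 235 and 238 CPM in WT and 189, 208 and 248 CPM in mdx/mTR. It was not called (-0.10 ± 0.07, adjusted p 0.25). Without mdx/mTR replicate 5, which held its peak, it passed the threshold at -0.15 (adjusted p 0.042). Hsp90b1, the ER HSP90, had 129, 143 and 155 CPM in WT and 130, 141 and 187 CPM in mdx/mTR, with its peak in the same library, and was not called (0.05 ± 0.08, adjusted p 0.63).

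The ER stress element, which the transcription factor Atf6 uses, was searched on both strands as CCAAT and CCACG with 9 bases of any kind between them. It occurred in 0.119% of all promoters and in 3 of the 59 members, Hspa5, Hsp90b1 and Dnajc3. The stretches are shown because these are the classical targets of the unfolded protein response. Capitals mark the element. The Hspa5 site lies at chr2:34772020-34772049 on the plus strand and begins 65 bases before the start. Hsp90b1 has 2 matches in opposite directions at chr10:86705510-86705694 on the minus strand, and Dnajc3 has 1 at chr14:118937682-118937931 on the plus strand, beginning 105 bases before its start.
Hspa5: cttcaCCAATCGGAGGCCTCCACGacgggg
Hsp90b1: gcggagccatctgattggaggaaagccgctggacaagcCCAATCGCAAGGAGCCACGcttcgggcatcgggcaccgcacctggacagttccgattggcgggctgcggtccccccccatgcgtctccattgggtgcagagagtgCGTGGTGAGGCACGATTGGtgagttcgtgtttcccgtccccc
Dnajc3: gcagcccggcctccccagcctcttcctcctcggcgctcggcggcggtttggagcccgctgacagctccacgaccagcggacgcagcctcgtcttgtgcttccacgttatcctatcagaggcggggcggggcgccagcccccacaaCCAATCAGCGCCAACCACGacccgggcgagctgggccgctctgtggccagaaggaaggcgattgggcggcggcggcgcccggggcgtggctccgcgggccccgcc
None of the 3 genes was higher in mdx/mTR, and Dnajc3 was lower. Of the 49 tested members listed without a match, 6 were higher and 19 lower, beside 25.0% and 23.4% of all genes.

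Dnajc3, an ER J protein that dampens the stress kinase PERK, had 58.6, 62.1 and 66.1 CPM in WT and 53.4, 55.8 and 58.3 CPM in mdx/mTR. The groups were narrowly apart and the log2 fold change was -0.17 ± 0.04 (adjusted p 0.0045), but with library totals alone it was -0.01 (adjusted p 0.89). Dnajb12, a membrane J protein of ER-associated degradation, had 49.9, 55.8 and 57.8 CPM in WT and 38.3, 43.8 and 46.5 CPM in mdx/mTR, without overlap, at -0.36 ± 0.06 (adjusted p 0.00022). Dnajc16 fell from 30.9 ± 1.22 to 25.0 ± 1.01 CPM, also without overlap, at -0.31 ± 0.04 (adjusted p 8.9e-05). Hspa13, an HSP70 relative that lacks the client-binding domain, was lower at -0.20 ± 0.05 (adjusted p 0.0070), and not with library totals alone (-0.04, adjusted p 0.64). Dnajc25 was called at -0.20 ± 0.08 (adjusted p 0.048), a call lost in 13 of 21 alternatives.

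The BiP partners Dnajb9 and Dnajb11 were just short of the threshold in opposite directions. Dnajb9 had 39.2, 46.4 and 48.8 CPM in WT and 39.4, 41.8 and 43.7 CPM in mdx/mTR (-0.13 ± 0.05, adjusted p 0.059), and without WT replicate 2 it was called at -0.17 (adjusted p 0.0051). Dnajb11 had 40.3, 41.6 and 43.4 CPM in WT and 41.5, 44.8 and 48.3 CPM in mdx/mTR (0.10 ± 0.04, adjusted p 0.064), and without mdx/mTR replicate 4 it was called at 0.12 (adjusted p 0.029). The other ER members, Dnajb14, Dnajc1, Dnajc10, Dnajc14 and Dnajc18, lay between -0.11 and 0.02 and were not called.

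Of the 9 tested members elsewhere, 4 were lower, beside 23.4% of all genes. Dnajc21, a factor of 60S ribosome maturation, had 80.7, 96.3 and 103 CPM in WT and 55.0, 64.2 and 70.0 CPM in mdx/mTR, without overlap, at -0.58 ± 0.08 (adjusted p 4.3e-05). Dnajc27, a Rab-like GTPase with a J domain, had 163, 181 and 191 CPM in WT and 92.8, 134 and 139 CPM in mdx/mTR, without overlap, at -0.51 ± 0.09 (adjusted p 0.00033). Dnajc13, which acts on endosomes, was lower at -0.27 ± 0.05 (adjusted p 0.00056), and Dnajc17, a spliceosome-linked protein, at -0.32 ± 0.09 (adjusted p 0.012). Both lost their call with library totals alone. Dnajc5, the cysteine string protein of synaptic vesicles, was not called at 79.4 ± 4.91 and 76.0 ± 4.46 CPM (-0.06 ± 0.05, adjusted p 0.33). Hspb11, a subunit of the ciliary transport complex, was not called at -0.38 ± 0.15 (adjusted p 0.052) on only 1.80 and 1.38 CPM. The histone chaperone Dnajc9 (0.20, adjusted p 0.064), Dnajc8 (-0.05) and Hspbap1 (0.04) were not called either.

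The remaining 9 members did not pass the filter on low counts, and none exceeded 0.447 CPM in any library. Dnajc5b and Dnajc5g had 0 counts throughout, which allows up to 0.0837 CPM by counting error in WT replicate 2, the library with the smallest scaled size. Dnajb7, Dnajb8, Dnajb13, Dnajc6, Dnajc22 and Hspb9 had between 3 and 71 counts in total. Dnajb3, a J protein known from the testis, had 0 to 3 counts in each WT library and 9 to 21 in each mdx/mTR library, so that its groups did not overlap. In the fit without the filter it was called higher (adjusted p 0.00076) and none of the other 6 that this fit tested was called, where 35.4% of all genes were called. It was singled out here after its values were seen.

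The balance within chaperone families was compared as shares of counts within a library, which scaling between libraries does not alter. A total of 4 such shares were tested with two-sided exact permutation tests, adjusted over the 4. Hspa5 made up 18.7% to 20.99% of the counts of Hspa5, Hspa8 and Hspa9 in WT (20.02% ± 0.918, SD, n = 6) and 21.9% to 29.2% in mdx/mTR (24.0% ± 2.63), without overlap. The difference of 4.01 percentage points had an exact p of 0.00216, the smallest this design allows, and an adjusted p of 0.0087. With the replicate number as a block, an exact permutation test by sign flips gave an adjusted p of 0.0625. The share depends on the counting of Hspa8, 74.8% of whose 50-base stretches also occur in another gene. Without mdx/mTR replicate 5, whose share was 29.2%, the difference was 2.97 points (exact permutation test, adjusted p 0.017). The share rose while the CPM of Hspa5 was not called and those of Hspa8 and Hspa9 were lower. Hspa9 made up 59.8% ± 2.04 in WT and 57.4% ± 2.79 in mdx/mTR (exact permutation test, adjusted p 0.15).

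Hspa1a and Hspa1b together made up 1.29% ± 0.468 of the counts of Hspa1a, Hspa1b and Hspa8 in WT and 3.19% ± 2.65 in mdx/mTR (exact permutation test, adjusted p 0.035, n = 6 each). Mdx/mTR replicate 1 stood at 8.50% and WT replicate 1 at 2.21%, while the other libraries lay at 1.45% to 2.89% and 0.990% to 1.34%. Without mdx/mTR replicate 1 the difference fell from 1.90 to 0.836 percentage points and was not past the threshold (exact permutation test, adjusted p 0.069). In 8 of 12 runs with 1 library left out this share was not past it. Hsp90aa1 made up 0.860% ± 0.104 of the cytosolic HSP90 counts in WT and 0.967% ± 0.143 in mdx/mTR (exact permutation test, adjusted p 0.16), and 0.144 points more in mdx/mTR without WT replicate 4 (adjusted p 0.040).

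**Figure D4:**
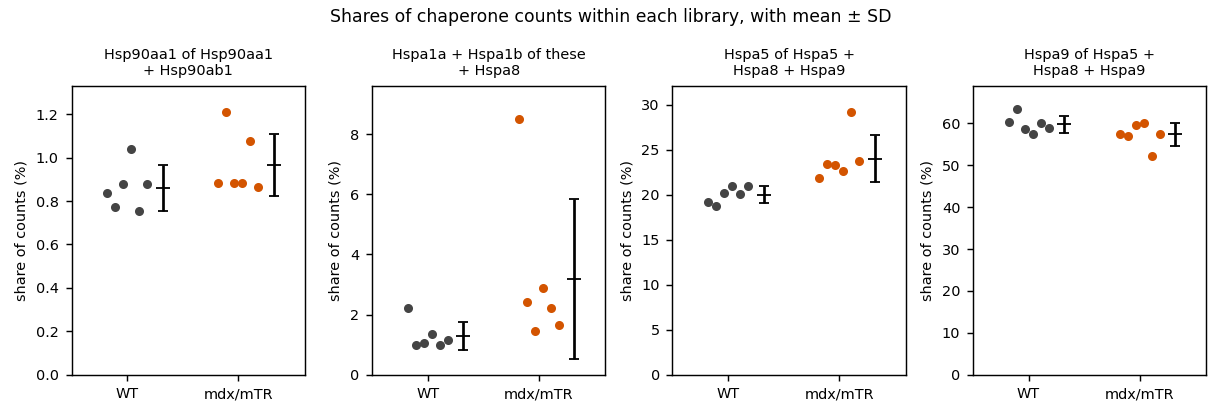
Share of counts within each library (y axis, percent, linear from 0) for the 4 shares tested, with points for replicates 1 to 6 from left to right and the mean ± SD beside them. The Hspa5 share is apart between the groups, with mdx/mTR replicate 5 at 29.2%, and the share of Hspa1a with Hspa1b is drawn up by mdx/mTR replicate 1 at 8.50%.

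The genes that work with these chaperones were taken from lists of 76 genes, chosen with earlier results of these data known. Of the 74 tested, 11 were higher (14.9%) and 21 lower (28.4%), beside 25.0% and 23.4% of all genes. Under library totals alone 27 were higher (36.5%) and 8 lower (10.8%), near the 40.2% and 11.2% of all genes. Of the heat shock factor genes, Hsf1 itself fell from 54.3 ± 4.14 to 41.8 ± 3.97 CPM without overlap (-0.38 ± 0.07, adjusted p 0.00055). The other 3 tested of that list were not called with TMM. Among 24 co-chaperones of HSP90 and HSP70, 10 were lower and none higher, and with library totals alone 5 were lower and 3 higher. Fkbp4, a prolyl isomerase of HSP90 complexes, fell from 170 ± 6.82 to 123 ± 4.90 CPM (-0.47 ± 0.04, adjusted p 2.8e-06). Stip1, which hands clients from HSP70 to HSP90, fell from 110 ± 7.41 to 88.4 ± 3.08 CPM (-0.31 ± 0.05, adjusted p 0.00019). Both were below WT in all 6 mdx/mTR libraries. Of 14 subunits of the cytosolic chaperonin TRiC and of prefoldin, 3 were lower with TMM, and with library totals alone none was lower and 6 were higher. The smallest p-values with TMM were those of Cct2 (-0.17 ± 0.04, adjusted p 0.0065) and Pfdn6 (-0.19 ± 0.05, adjusted p 0.013). Cryab, which encodes alpha B crystallin, was not called at 407 ± 24.3 and 448 ± 78.6 CPM (0.14 ± 0.10, adjusted p 0.26), and was called with library totals alone (0.30, adjusted p 0.042).

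The mitochondrial list had 5 of 13 genes lower and 1 higher, beside 23.4% and 25.0% of all genes. With library totals alone 2 were lower and 3 higher, beside 11.2% and 40.2% of all genes. Clpb, a mitochondrial disaggregase, fell from 106 ± 1.999 to 69.2 ± 7.63 CPM (-0.61 ± 0.06, adjusted p 8.1e-06), and the protease Lonp1 from 145 ± 3.61 to 121 ± 10.01 CPM (-0.27 ± 0.05, adjusted p 0.0012). The protease Htra2 was higher (0.36 ± 0.08, adjusted p 0.0023). In the ER list 10 of 18 genes were higher and 2 lower, beside 25.0% and 23.4% of all genes, and the median was 0.19 against -0.11 for the ER members. Under library totals alone 12 were higher and none lower, where 40.2% of all genes were higher and 11.2% lower. Both medians were then positive, at 0.35 for the list and 0.05 for the members. Edem1, which sends misfolded glycoproteins to degradation, rose from 12.1 ± 1.18 to 19.3 ± 3.72 CPM (0.67 ± 0.11, adjusted p 0.00034). Xbp1, a transcription factor of the unfolded protein response, rose from 64.9 ± 1.41 to 78.8 ± 7.24 CPM (0.28 ± 0.06, adjusted p 0.0012). Both were above WT in all 6 mdx/mTR libraries. Sel1l (-0.17 ± 0.03, adjusted p 0.00099) and Herpud1 (-0.23 ± 0.07, adjusted p 0.011), both of ER-associated degradation, were lower with TMM. Macrophage and fibro-adipogenic progenitor markers were higher beside this list, and their part in it was not tested. The difference between the ER list and the ER members was described by counts and not tested.

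**Figure D5:**
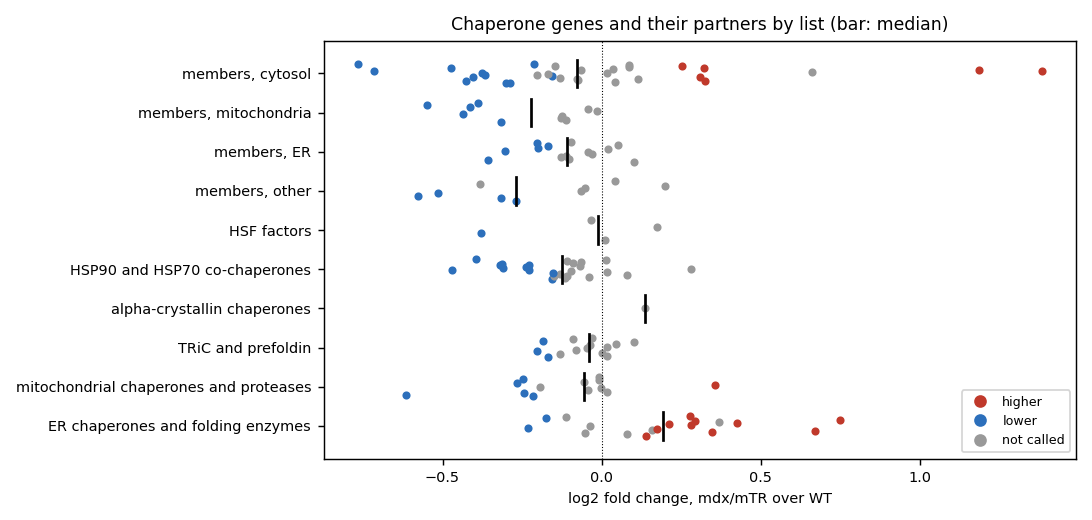
Log2 fold change from WT to mdx/mTR (x axis, TMM scaling) of each tested gene, as points in rows by compartment of the members and by list of partner genes, with a bar at the median of each row. Red is called higher, blue lower and grey not called; the ER list holds 10 red points and the row of ER members none.

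In the authors' deposited table an adjusted p was given for 64 members, with 6 higher and 27 lower at 0.05, where 50.1% of all genes with an adjusted p were called in that table. These comprised all 31 members called here, together with Dnajb9 and Hspb11. Among the 45 tested members with under 10% of shared stretches and of overlapping exonic bases, 4 were higher (8.89%) and 17 lower (37.8%), beside 25.0% and 23.4% of all genes.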

How the data were processed

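Messenger RNA of the tibialis anterior was measured in 6 WT and 6 mdx/mTR libraries. The authors deposited whole-number counts per gene symbol, one column per library, and 0 per-sample columns lacked a sample. STAR, FastQC, DESeq2 and mm10 appear in the submitters' processing notes; the counter, its strand setting and its handling of reads with several matches are not given in the sources used here. A second table that the authors deposited gives, per the file headers, their mean signal, log2 fold change with its error, score, and raw and adjusted p-values for each gene.

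The deposited counts entered edgeR 4.0.16 (R 4.3.3) unchanged (filterByExpr, TMM, quasi-likelihood test, Benjamini-Hochberg over 13937 genes, threshold 0.05). CPM use TMM-scaled library sizes over tested genes. Library totals were 35136327 to 60330410 counts, and a floor of 3 counts corresponds to 0.0460 to 0.0837 CPM, by counting error only. Replicates differed by more than sampling noise in every pair (chi-square per degree of freedom 9.14 to 128). On simulated counts for 13937 genes, with 200 changed by an absolute log2 fold change of 1, edgeR recovered 90.0% with 14 false calls. Smaller changes, and a larger share of changed genes, were not simulated. Shares of counts were compared with exact permutation tests over all divisions of the libraries, with the smaller tail doubled. The test was checked on random values against scipy 1.17.1.

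Transcript lengths, shared 50-base stretches and exon overlaps came from GENCODE M21, and promoters from RefSeq, GRCm38.p6. Alternatives were other filters, scalings, DESeq2 1.42.0, limma-voom 3.58.1, a replicate block, each library left out, a threshold of 0.01, and Hspa1a and Hspa1b summed. Leaving out 2 libraries together, the subset with little shared sequence and the sums with library totals alone were chosen after seeing the data. Named were a fixed set of 30 members, called members with an absolute log2 fold change of at least 0.5, the 3 smallest p-values per compartment and the 2 per partner list in each direction, Hsf1, Cryab, Bag3 and Dmd. Other members are named to account for them. The members and lists were chosen with earlier results of these data known. Equal replicate numbers were not taken as pairs. One further entry of the count table is not reported here.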

Additional observations from a re-analysis of the deposited data

Results flagged for a closer look

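In 12 of 136 groups of 6 libraries, the highest or lowest value stood apart from the other 5 by Dixon's criterion, where chance gives about 1 in 20, or 6.8. WT replicate 2 was low for Hsp90ab1 (985 CPM, the others 1121 to 1144), Dnaja2 (252 CPM, the others 294 to 308) and Dnajc13 (61.3 CPM, the others 69.5 to 71.3). All 3 genes were called lower in mdx/mTR, and these values narrowed the difference.

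Mdx/mTR replicate 1 was high for Hspa1a (8.17 CPM, the others 1.51 to 2.85) and Hspa1b (8.44 CPM, the others 0.711 to 1.92). The share of this pair in the cytosolic HSP70 counts was 8.50% there, with the others at 1.45% to 2.89%. In WT the share stood apart in replicate 1, at 2.21% against 0.990% to 1.34%.

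Mdx/mTR replicate 2 was high for Hspb6 (1457 CPM, the others 624 to 933) and low for Hsp90ab1 (776 CPM, the others 860 to 905). Mdx/mTR replicate 5 was low for the mitochondrial Dnajc15 (30.5 CPM, the others 35.0 to 37.1) and Dnajc30 (12.9 CPM, the others 15.9 to 17.1). Its Hspa5 share of the core HSP70 counts, 29.2%, was above the 21.9% to 23.8% of the others.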

How the results depend on the processing

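The difference in the summed CPM of all members, mdx/mTR minus WT, was -949.8 with TMM and -285 with library totals alone. The count of called members stayed between 22 and 33 under the alternatives run on all members, but its split moved. Members higher in mdx/mTR numbered 6, against 12 with library totals alone, 3 with WT replicate 2 and mdx/mTR replicate 5 left out, 2 at an adjusted p below 0.01 and 3 to 7 with each library left out (3 without WT replicate 6). Partner genes numbered 32, against 20 at 0.01, where 5 were higher, and with library totals alone 27 were higher and 8 lower. Of all genes, 25.0% were higher and 23.4% lower in the main fit, against 40.2% and 11.2% with library totals alone. These were 17.0% and 16.1% at 0.01, and 23.4% and 22.9% with the 2 libraries left out. Without WT replicate 6, 22.9% were higher. Equal replicate numbers did not pair the libraries (correlations of deviations from -0.14 to 0.33, 2 of 6 over 0.1). With the replicate block 7 members were higher and 24 lower, beside 23.7% and 22.3% of all genes. The shares of Hspa5 (4.01 points) and of Hspa1a with Hspa1b (1.90 points) then had an adjusted p of 0.0625 in an exact permutation test by sign flips, whose smallest p is 0.031. With each library left out, the share difference of Hspa1a with Hspa1b ran from 0.836 to 2.25 points and that of Hsp90aa1 from 0.0590 to 0.144 points.

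Reversals were limited to genes that were not called. With library totals alone the log2 fold change turned positive for Dnajb14 (0.0567), Dnajb4 (0.0770), Dnajb5 (0.0694), Dnajb9 (0.0304), Dnajc1 (0.0434), Dnajc10 (0.128), Dnajc11 (0.0454), Dnajc12 (0.0213), Dnajc14 (0.116), Dnajc15 (0.0246), Dnajc19 (0.0258), Dnajc30 (0.138), Dnajc4 (0.110), Dnajc5 (0.0960), Dnajc8 (0.104), Hspa4 (0.0921), Hspa5 (0.0676), Hspb6 (0.0154) and Bag3 (0.00578), and with upper quartile scaling for Dnajc10 (0.0115) and Dnajc30 (0.0274). With the 2 libraries left out it changed sign for Dnajc30 (0.0318), Dnajc4 (0.0139), Hsp90b1 (-0.0497), Hspa14 (-0.0136), Hspa4l (-0.00367), Hspb8 (-0.0145) and Hspbap1 (-0.0635). With each library left out it ran from -0.0716 to 0.115 for Dnaja4, -0.00919 to 0.0478 for Dnajc18, -0.0386 to 0.0355 for Dnajc30, -0.0293 to 0.0857 for Hsp90b1, -0.0111 to 0.0516 for Hspa14, -0.0537 to 0.0768 for Hspa4l and -0.0449 to 0.115 for Hspbap1. The shift of all genes under library totals is given above; the cause of the other changes was not tested. Low counts kept 9 members out of the tests.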
